A study of Mus musculus with 8 samples.

Results

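The unfolded protein response is the program by which a cell adds chaperones, folding enzymes and degradation factors to its endoplasmic reticulum (ER) when unfolded proteins collect there. Its membrane sensors are IRE1 (gene *Ern1*), which removes a short stretch from *Xbp1* mRNA so that an active transcription factor is made, ATF6, which is cut free in the Golgi to become a transcription factor, and PERK (*Eif2ak3*), which slows translation while *Atf4* mRNA is favoured. In the liver, whose hepatocytes secrete most plasma proteins, ATF6 and XBP1 together set much of the folding capacity through elements in the promoters of their targets. Examined here were 10 targets of ATF6 and XBP1 whose gene symbols are not of the Hsp, Dnaj or Pdia series, namely *Creld2*, *Manf*, *Sdf2l1*, *Hyou1*, *Calr*, *Herpud1*, *Xbp1*, *Creb3l2*, *Gfpt1* and *Uap1*. They were found by gene symbol, and all 10 had a line among the 7500 genes of the table analysed. The 10 were chosen by their role and with the footprint ratios of this comparison in view, so their values are a description with no test.

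Ribosome profiling sequences the fragments of mRNA that ribosomes shield from nuclease, and was applied to livers of male FVB/N mice. After weaning at 3 weeks of age the mice were fed for 6 weeks a torula yeast diet, either with no added selenium (0 Se, 2 mice, 4 libraries) or with 0.1 ppm selenium as sodium selenite (0.1 Se, 2 mice, 4 libraries). The comparison asks on which mRNAs ribosome footprints differ between the deficient and the adequate diet. All animals were of 1 sex and 1 strain, no gene was altered in them, and 2 libraries came from each mouse.

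The table held 1 comparison of the diets and no value of a single library, so the sum of footprints in each diet was worked out for every gene from the deposited p-value and abundance. These sums are adjusted footprints, that is, footprints of both mice of a diet after scaling to a common depth of 7468742 per diet. They were recovered as whole numbers for 6717 genes and estimated for 769, mostly abundant, genes. Of the 10 targets, *Creld2*, *Sdf2l1*, *Creb3l2*, *Gfpt1* and *Uap1* had whole sums, and *Manf*, *Hyou1*, *Calr*, *Herpud1* and *Xbp1* had estimated sums. No value of a single mouse was used, so no SD can be given. The standard error (SE) of each log2 ratio combines counting error with a common spread taken as equal for every gene. A spread particular to a gene is not in it. The deposited p-values imply a coefficient of variation of 0.11 for the common spread if the repeat libraries of each mouse were joined. That joining was assumed, since the p-values fix only the dispersion relative to the number of libraries per diet.

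The promoters were read in a window from 250 bases before to 50 bases after the start site, taken from RefSeq (GRCm38.p6), where 8 of the 10 targets matched an entry. The ER stress response element (ERSE), the site that ATF6 and XBP1 are known to use together with NF-Y, was searched on both strands as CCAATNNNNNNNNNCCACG, and the related ERSE-II as ATTGG, any 1 base and CCACG. *Creld2* and *Calr* held an ERSE and *Herpud1* an ERSE-II. Over all 32851 promoter windows, 0.119% held an ERSE and 0.037% an ERSE-II. The other 5 of the 8 matched windows held neither. The 3 elements are shown here because they are the known ATF6 and XBP1 sites found in these windows, with those of *Hspa5* and *Syvn1* for comparison and with the stretch of *Xbp1* mRNA that IRE1 removes. Capitals mark the searched element, or in *Xbp1* the removed bases, and every line reads 5′ to 3′.
Creld2 ERSE: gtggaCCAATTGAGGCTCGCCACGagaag
Calr ERSE: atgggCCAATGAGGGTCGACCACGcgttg
Hspa5 ERSE: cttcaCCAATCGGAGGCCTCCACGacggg
Syvn1 ERSE: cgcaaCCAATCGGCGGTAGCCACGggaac
Herpud1 ERSE-II: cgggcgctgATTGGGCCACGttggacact
Xbp1 removed stretch: cgCAGCACTCAGACTATGTGCACCTCTGca

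The element of *Creld2* lies at chr15:88819515-88819543 (GRCm38.p6), is printed from the minus strand, opposite to the gene, and spans bases 126 to 108 before the start site. That of *Calr* lies at chr8:84847070-84847098, is printed from the plus strand, again opposite to the gene, and spans bases 162 to 144 before the start. The ERSE-II of *Herpud1* lies at chr8:94386368-94386396 on the plus strand, which is that of the gene, 52 to 42 bases before the start. The *Hspa5* and *Syvn1* elements, at chr2:34772020-34772048 and chr19:6046527-6046555, both lie on the plus strand, that of their genes, and begin 65 and 44 bases before the start. No match to the core of the UPRE, TGACGTGG, was in any of the 8 windows, against 0.676% of all windows. The C/EBP-ATF response element, TGATGNAA, was in that of *Herpud1* alone of the 8, against 3.97% of all. A match describes letters in a window and does not show that a factor was bound.

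The stretch of *Xbp1* lies at chr11:5424280-5424309 (mm9, plus strand), in exon 4 of 5 and inside the coding sequence. The 26 capital letters are bases 479 to 504 of the unspliced coding sequence, which has 267 codons. Their removal shifts the frame from codon 160 onward and gives a frame of 371 codons, that of the active factor XBP1s. The counted coding length of *Xbp1* was that of the unspliced frame, so the value of *Xbp1* joins footprints from both forms and says nothing about their ratio.

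Footprints of all 10 targets were more numerous on 0.1 Se than on 0 Se. The ratio of 0.1 Se over 0 Se ran from 3.13 for *Creld2* down to 1.08 for *Xbp1*, with a median of 1.60, and it exceeded 1.5 for 8 of the 10. For 9 of the 10 the 95% interval of the ratio lay above 1, the exception being *Xbp1*. A gene was called changed when an exact test on its 2 sums gave an adjusted p under 0.05 over 10398 tests and the ratio exceeded 1.5-fold. Of all tests 0.769% were called higher on 0.1 Se and 1.03% in either direction. Of the targets 5 were called, all higher, namely *Creld2*, *Sdf2l1*, *Herpud1*, *Manf* and *Hyou1*, and nothing is read from that count since the same comparison guided the choice. Whole liver was measured, so fewer cells of a type and less RNA per cell cannot be told apart, and footprints do not separate the amount of an mRNA from the ribosomes on each copy.

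**Figure D1:**
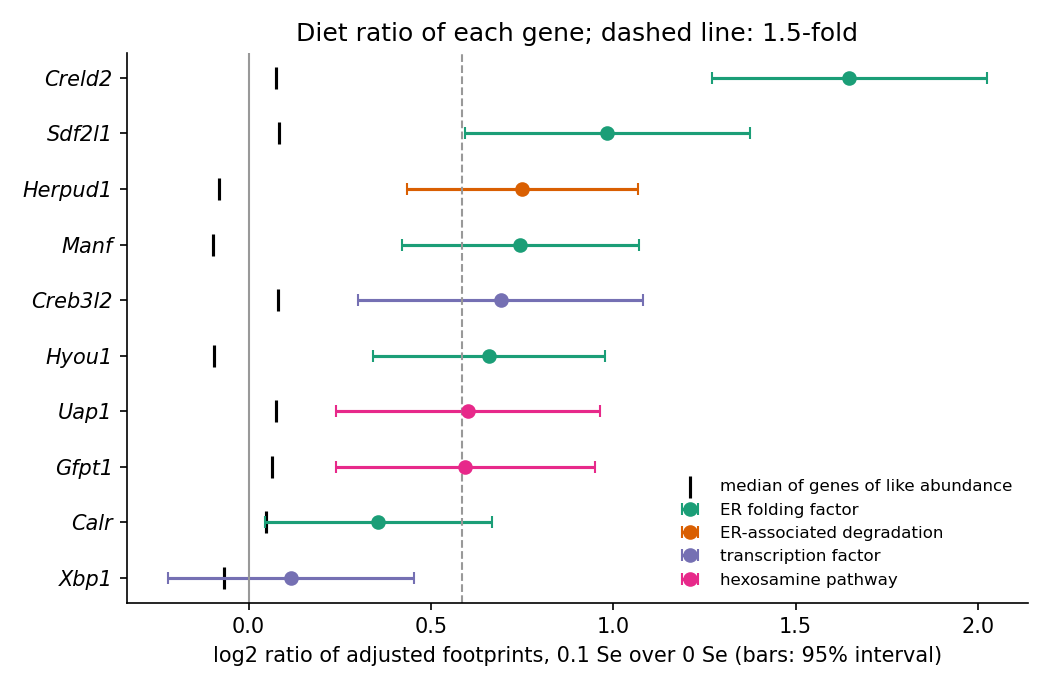
Log2 ratio of adjusted footprints, 0.1 Se over 0 Se, for the 10 targets (points, coloured by role) with 95% intervals (bars). Short black strokes are the median log2 ratio of genes within 0.5 log2 CPM of each target, the solid line is a ratio of 1 and the dashed line 1.5-fold. *Creld2* stands at 1.65, and only the bar of *Xbp1* crosses 0.

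Of the folding factors, *Creld2* (chr15:88650076-88657111, plus strand, 10 exons, positions of genes being those of mm9 throughout) showed the largest ratio. It encodes an ER protein with EGF-like repeats that is secreted in part during ER stress. Its coding sequence carried 235 adjusted footprints on 0 Se and 736 on 0.1 Se. The log2 ratio was 1.65 (SE 0.19), a 3.13-fold difference with a 95% interval of 2.41 to 4.07. Of 706 genes within 0.5 log2 CPM of it, 0 had a higher ratio, and 54 did in the whole table.

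The ERSE of *Creld2* stands between 2 genes that are transcribed away from each other. The same bases lie 220 to 202 before the start of *Alg12*, a mannosyltransferase gene of N-glycan assembly, and there they read in the direction of that gene. *Alg12* had 66 adjusted footprints on 0 Se and 87 on 0.1 Se (log2 ratio 0.40, SE 0.28) and was not called. It was singled out after its value had been seen. Both genes of the pair had ratios above 1, and that of *Alg12* lay within 2 SE of it.

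*Sdf2l1* (chr16:17130231-17132476, minus strand, 3 exons) encodes an ER protein that works with J proteins of the BiP chaperone complex. It had 215 adjusted footprints on 0 Se and 425 on 0.1 Se. The log2 ratio was 0.98 (SE 0.20), 1.98-fold with an interval of 1.51 to 2.59, the second largest of the 10. Among 965 genes of like abundance, 3 had a higher ratio.

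*Manf* (chr9:106740643-106794310, minus strand, 4 exons) encodes a small ER protein that binds BiP and is also secreted. Its sums were 1385 on 0 Se and 2321 on 0.1 Se, a log2 ratio of 0.74 (SE 0.17) or 1.68-fold with an interval of 1.34 to 2.1. *Hyou1* (chr9:44187573-44200452, plus strand, 26 exons) encodes GRP170, a large ER chaperone that releases ADP from BiP. It went from 3275 to 5171, a log2 ratio of 0.66 (SE 0.16), 1.58-fold with an interval of 1.27 to 1.97. The ratios of these 2 BiP partners lay within each other's intervals.

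*Calr* (chr8:87365749-87370833, minus strand, 9 exons) encodes calreticulin, the soluble calcium-binding lectin chaperone of glycoproteins. It carried the most footprints of the 10, 19059 on 0 Se and 24391 on 0.1 Se. In number of footprints it gained more than any other target, while its ratio was 1.28, with a log2 ratio of 0.36 (SE 0.16) and an interval of 1.03 to 1.59. It was not called, and it passed neither the adjusted threshold nor the 1.5-fold limit. Over all 10 targets the sum of adjusted footprints was 29825 on 0 Se and 41853 on 0.1 Se, or 0.399% and 0.560% of all footprints. Without *Calr* and *Xbp1*, the other 8 summed to 9849 and 16468, a ratio of 1.67 against 1.40 for all 10.

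*Herpud1* (chr8:96910338-96919277, plus strand, 8 exons) encodes a membrane protein of ER-associated degradation, the route by which misfolded proteins are passed to the proteasome. It had 3662 adjusted footprints on 0 Se and 6162 on 0.1 Se. The log2 ratio was 0.75 (SE 0.16), 1.68-fold with an interval of 1.35 to 2.1, and 3 of 115 genes of like abundance had a higher ratio.

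Of the transcription factor genes, *Xbp1* (chr11:5420662-5425896, plus strand, 5 exons) had 917 adjusted footprints on 0 Se and 994 on 0.1 Se. Its log2 ratio of 0.12 (SE 0.17) was smaller than its error, and 147 of 464 genes of like abundance had a higher ratio. *Creb3l2* (chr6:37277255-37392146, minus strand, 12 exons) encodes BBF2H7, an ER-anchored transcription factor that is cut free like ATF6 and is known for its role in secretion by cartilage cells. Its sums were 231 and 373, a log2 ratio of 0.69 (SE 0.20), 1.61-fold with an interval of 1.23 to 2.12. It did not pass the adjusted threshold, although its ratio was larger than that of the called *Hyou1*, which rested on more than 10 times as many footprints.

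*Gfpt1* and *Uap1* encode the enzyme that commits sugar to the hexosamine pathway and the last enzyme of that pathway, which makes the UDP-N-acetylglucosamine used for N-glycans. *Gfpt1* (chr6:86992840-87042191, plus strand, 19 exons) had 454 adjusted footprints on 0 Se and 685 on 0.1 Se. *Uap1* (chr1:172072069-172105088, minus strand, 11 exons) had 392 and 595. Their ratios were close together, 1.51 for *Gfpt1* (log2 0.59, SE 0.18, interval 1.18 to 1.93) and 1.52 for *Uap1* (log2 0.60, SE 0.18, interval 1.18 to 1.95). Neither was called, and for each of them 17 genes of like abundance had a higher ratio, of 651 and 702.

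The ratios of the targets were spread as well. In 15 of the 45 pairs of targets the 95% interval of the difference between 2 log2 ratios excluded 0. These intervals rest on the common spread and were not adjusted for the 45 pairs. Since the same ratios guided the choice of targets, they are a description with no test. *Creld2* accounted for 9 of these pairs, its ratio standing above that of every other target. The difference was smallest against *Sdf2l1*, at 0.66 on the log2 scale (SE 0.28, interval 0.12 to 1.21), and largest against *Xbp1*, at 1.53 (interval 1.03 to 2.04). *Xbp1* lay below *Creld2*, *Sdf2l1*, *Herpud1*, *Manf*, *Creb3l2* and *Hyou1* by more than the interval, and the differences from *Calr*, *Gfpt1* and *Uap1* did not exclude 0. *Herpud1*, *Manf*, *Creb3l2*, *Hyou1*, *Uap1* and *Gfpt1* had ratios between 1.51 and 1.68.

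Levels were compared per length, as RPKM, adjusted footprints per kilobase of counted coding length scaled to depth. On 0 Se *Calr* was highest at 2143, and *Herpud1* followed at 439, *Manf* at 386, *Xbp1* at 165 and *Hyou1* at 149. The remaining 5 were lower, with *Sdf2l1* at 47.5, *Uap1* at 34.9, *Creld2* at 31.7, *Gfpt1* at 30.6 and *Creb3l2* at 20.5. Neighbours whose levels on 0 Se did not differ beyond their interval were *Herpud1* and *Manf*, *Xbp1* and *Hyou1*, *Uap1* and *Creld2*, and *Creld2* and *Gfpt1*.

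On 0.1 Se the levels were 2742 for *Calr*, 739 for *Herpud1*, 647 for *Manf*, 235 for *Hyou1* and 179 for *Xbp1*. Below these stood *Creld2* at 99.2, *Sdf2l1* at 93.9, *Uap1* at 52.9, *Gfpt1* at 46.2 and *Creb3l2* at 33.2. *Creld2* moved from place 8 of 10 on 0 Se to place 6 on 0.1 Se. The level of *Uap1* relative to *Creld2* was 1.1 (interval 0.840 to 1.44) on 0 Se and 0.533 (interval 0.419 to 0.678) on 0.1 Se. *Hyou1* and *Xbp1* also changed places, the level of *Xbp1* relative to *Hyou1* being 1.11 (interval 0.881 to 1.39) on 0 Se and 0.760 (interval 0.606 to 0.952) on 0.1 Se.

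**Figure D2:**
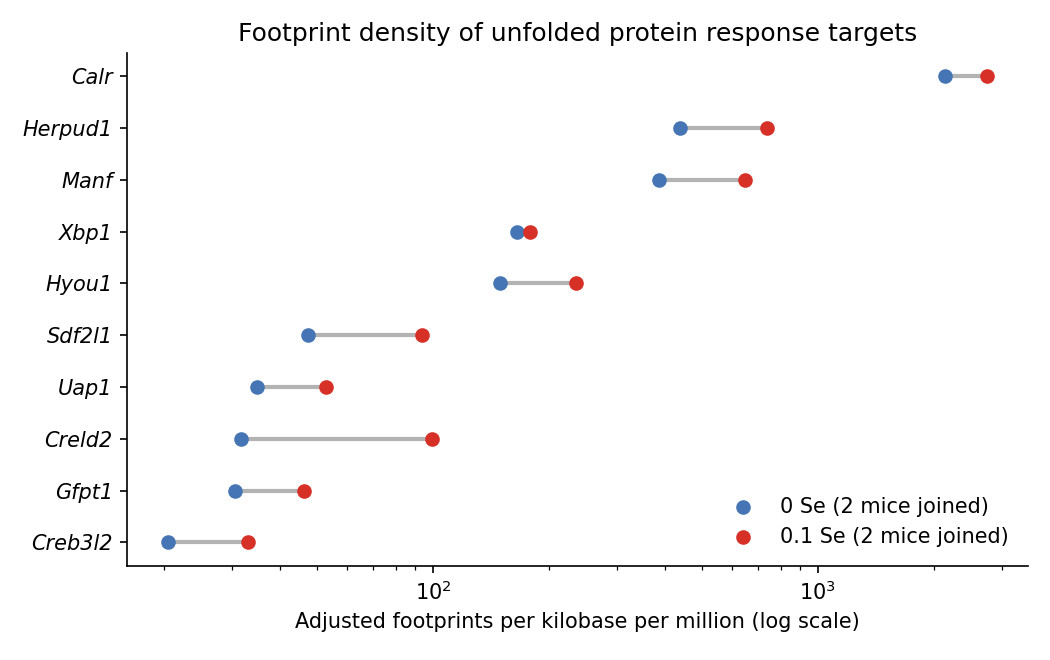
Footprint density of the 10 targets in RPKM (adjusted footprints per kilobase of counted coding length, scaled to depth), on a log scale, for 0 Se (blue) and 0.1 Se (red), each point being 2 mice joined. *Calr* is highest on both diets, at 2143 and 2742, and the widest gap between the diets on this scale is that of *Creld2*, from 31.7 to 99.2.

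The log2 CPM of the targets, the authors' average abundance over all libraries, ran from 5.36 for *Creb3l2* to 11.51 for *Calr*. The median ratio of the table differed between ranges of abundance, with no steady trend. The median log2 ratio was 0.06 over all 7500 genes, 0.08 over the 2329 genes with a log2 CPM of 4 to 6, and -0.10 over the 402 genes of at least 8. It was -0.24 below a log2 CPM of 2, 0.13 from 2 to 4 and -0.06 from 6 to 8. The abundant targets *Herpud1*, *Manf* and *Hyou1* thus stood among genes whose median lay below 0, and the median of the 10 targets was 0.68. After centring on the genes of at least 8, or on those of 4 to 6, all 10 targets still had ratios above 1. The log2 ratio of *Xbp1* was 0.21 after the centring on abundant genes and 0.035 after the other. Tests without a line leave out many ratios near 1, so such a median can cross that gap with little real shift. Both centrings share this limit. The share of genes called higher grew with abundance, from 1.29% at a log2 CPM of 4 to 6 to 2.74% from 8 upward.

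**Figure D3:**
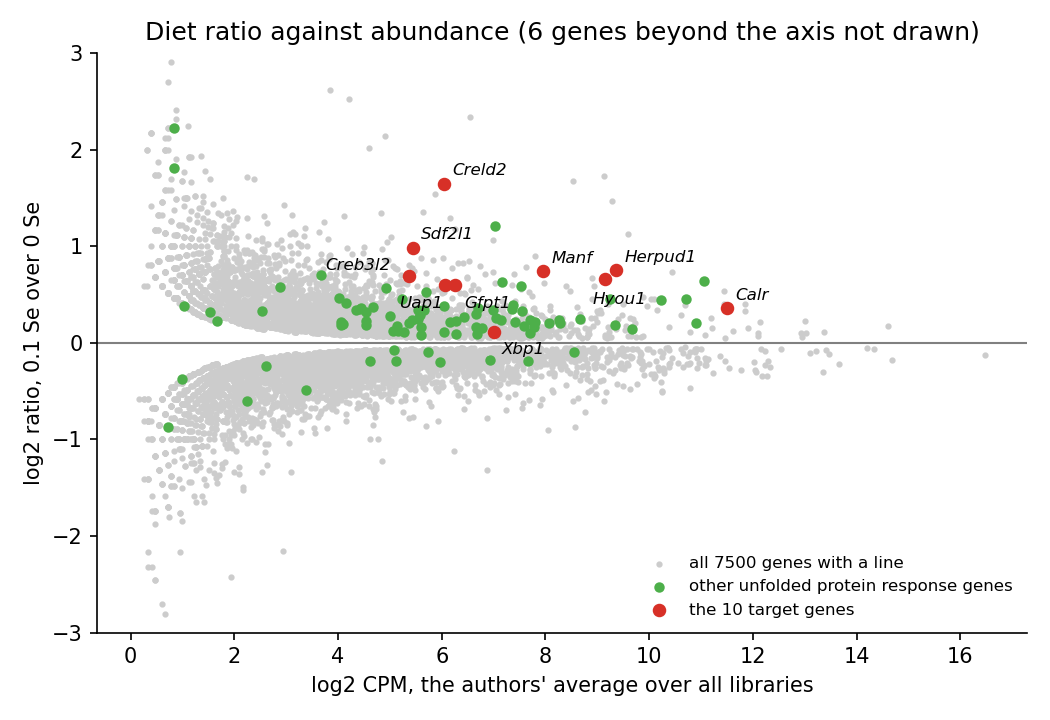
Log2 ratio of adjusted footprints, 0.1 Se over 0 Se, against log2 CPM, the authors' average abundance over all libraries, for the 7500 genes with a line (grey), the other unfolded protein response genes (green) and the 10 targets (red). The empty band around 0 arises because 2898 tests have no line, and 6 genes with a log2 ratio beyond 3 in size are not drawn. The targets all lie above 0, from 0.12 for *Xbp1* to 1.65 for *Creld2*.

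The wider response was described with 126 other genes in 8 lists. These were written from textbook knowledge and with earlier results of these data known, so their counts are a description and no set test was run. Of these, 86 had a line, 73 with a ratio above 1 and 13 below, while 50.4% of all 7500 genes lay above 1. The median log2 ratio of the 86 was 0.23, or 0.16 if the 40 genes with no line are set at 0, against 0.06 for the table. The call was passed by 4 of the 86, all higher on 0.1 Se, and by 0 lower. Of the 7500 genes with a line 80 were called higher, which is 0.769% of all tests. An unadjusted p under 0.05 in the exact test was found for 18 of the 86, against 818 of the 7500. After centring on the genes with a log2 CPM of 4 to 6, 73 still lay above 1 and 1 was called, *Syvn1*. Genes without a line include those that were not tested and some, not all, of those with an unadjusted p above 0.35.

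The ER chaperones of the Hsp70, Hsp90, J protein and disulfide isomerase families had 17 of 22 genes with a line, and all 17 had ratios above 1, with a median log2 ratio of 0.36. *Hspa5*, which encodes BiP, the main ER chaperone and the partner that holds the sensors inactive, rose from 12497 to 19495 adjusted footprints (log2 ratio 0.64, SE 0.16). *Dnajb11*, a J protein that works with BiP, rose from 832 to 1289 (log2 ratio 0.63, SE 0.17), and its promoter window holds an ERSE-II beginning at base 8 after the start. *Hsp90b1* (GRP94) had 10499 and 14401, *Pdia4*, a disulfide isomerase, 3805 and 5210, and *Dnajb9*, a J protein gene known as an XBP1 target, 1066 and 1398. The log2 ratios of these 3 were 0.46, 0.45 and 0.39, and none was called.

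In ER-associated degradation, the pathway of *Herpud1*, 13 of 17 listed genes had a line, 10 above 1 and 3 below, with a median log2 ratio of 0.18. Those below 1 were *Edem2*, with 190 and 167 adjusted footprints, *Erlec1*, with 274 and 241, and *Aup1*, with 406 and 380, and none of them was called. These 3 and *Vcp* are named after their values had been seen. *Syvn1* and *Sel1l* encode the ubiquitin ligase HRD1 and its adaptor, the complex to which the product of *Herpud1* binds. *Syvn1* rose from 580 to 1344 (log2 ratio 1.21, SE 0.17), the sums being the nearest of several possible pairs. *Sel1l* rose from 1096 to 1651 (log2 ratio 0.59, SE 0.17). *Derl3*, a channel component, rested on only 4 and 14 adjusted footprints, and *Edem1* had no line. Counting *Herpud1*, the 3 called degradation genes are parts or partners of that complex. The list was not sorted by membership of it, so other genes, including some below 1, may be partners too. Whether higher ratios were particular to the complex was not tested. *Vcp*, the segregase that acts after it, had 4511 and 5125.

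The other lists held no called gene by the exact test, which gave an unadjusted p under 0.05 for 4 genes of translocation and vesicle coats, 1 of the ATF4 and CHOP branch and 0 of the rest. All 7 sensor and processing genes with a line had ratios above 1, with a median log2 ratio of 0.33. *Ern1* had 471 and 510 adjusted footprints (log2 ratio 0.11, SE 0.18), *Atf6* 305 and 385 (0.34, SE 0.19) and *Eif2ak3* 130 and 164 (0.34, SE 0.23). Of the other folding factors 7 of 9 lay above 1, with a median of 0.19, and *Creld1*, the relative of *Creld2*, had 159 and 181 (log2 ratio 0.19). Of the genes of translocation into the ER and of vesicle coats, 17 of 19 lay above 1, with a median of 0.24, and *Sec61b* had no line.

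In the branch of ATF4 and CHOP, 14 of 27 genes had a line, 10 above 1 and 4 below, with a median log2 ratio of 0.22. *Atf4* itself had 87 adjusted footprints on 0 Se and 62 on 0.1 Se (log2 ratio -0.49). *Trib3*, a target of CHOP, had 41 and 61 (log2 ratio 0.57, SE 0.33), while *Ddit3*, which encodes CHOP, and *Asns*, a classic ATF4 target, had no line. The low counts of *Atf4* and *Trib3* give intervals that reach both sides of 1. *Chac1*, named after its value had been seen, rested on only 3 and 14 adjusted footprints and was not called. Its log2 ratio of 2.22 (SE 0.93, ratio interval 1.32 to 16.5) was the largest of the 86 listed genes with a line.

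Between *Gfpt1* and *Uap1* in the hexosamine pathway stand *Gnpnat1*, with 291 and 343 adjusted footprints (log2 ratio 0.24), and *Pgm3*, with 162 and 210 (0.37). Of the 6 genes with a line in this list, 4 lay above 1 and 0 were called. Of the CREB3 family, to which *Creb3l2* belongs, *Creb3* had 273 and 295, and *Creb3l3*, the member known as abundant in liver, had no line.

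**Figure D4:**
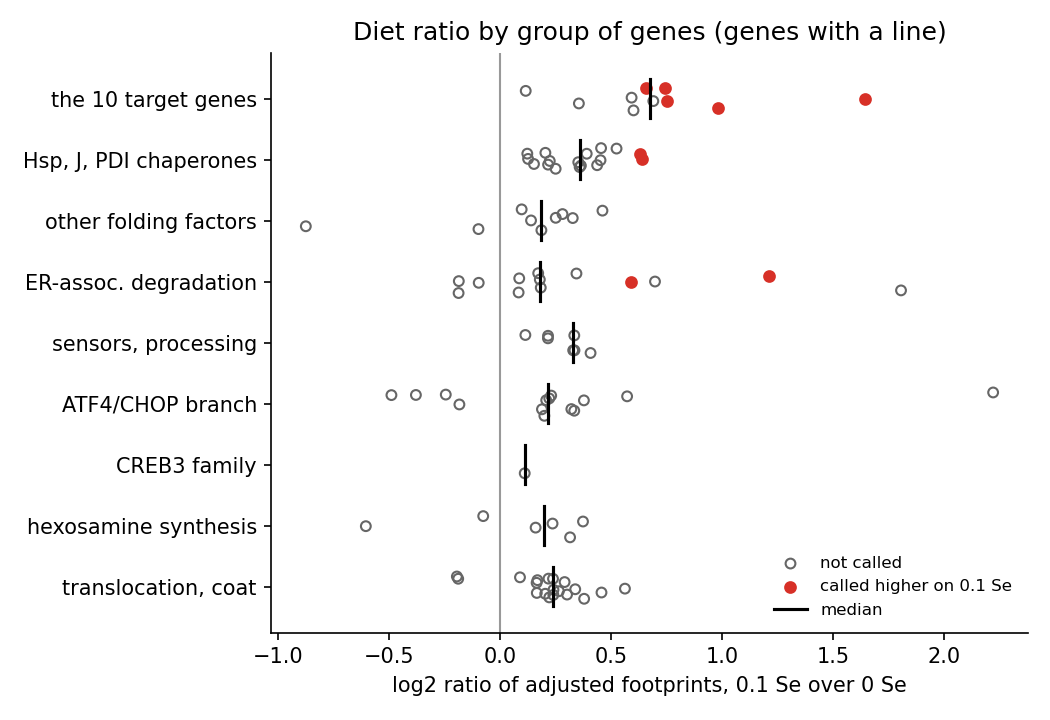
Log2 ratio of adjusted footprints, 0.1 Se over 0 Se, of each gene with a line in the 10 targets and in the 8 lists, with the height within a row spread for legibility. Red points passed the call, open points did not, and black strokes are medians, which run from 0.68 for the targets to 0.11 for the CREB3 family with its single gene.

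The promoter element gives another view of the same genes, and its counts were added after the values had been seen. Of 27025 genes with a window, 37 held an ERSE, and 16 of these had a line. Ratios above 1 were found for 14 of the 16, against 50.4% of the 7500 genes with a line. Of the 16, 3 were called higher, *Creld2*, *Syvn1* and *Hspa5*. Of the 7500 genes with a line 80 were called higher, which is 0.769% of all tests. Leaving out the targets, 12 of 14 lay above 1, with a median log2 ratio of 0.43. These are largely genes of the lists above, namely *Canx*, *Derl3*, *Dnajc3*, *Ero1lb*, *Hsp90b1*, *Hspa5*, *Pdia6* and *Syvn1*, all above 1. Of the rest, *Acnat2*, *Alg12*, *Spats2l* and *Xlr3a* lay above 1 and *Adcy3* and *Pan2* below, and none was called. The element was shared by genes of unlike ratio, *Creld2* at 1.65 and *Calr* at 0.36 on the log2 scale. An ERSE-II was in 12 genes, of which 6 had a line, 4 lay above 1 and 2 were called, *Herpud1* and *Dnajb11*. The same shares of all genes stand beside these few.

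The tissue matched its label, *Alb* carrying 711783 and 653698 adjusted footprints, and 6 of 7 hepatocyte markers had a line with log2 ratios of -0.31 to 0.23. Secretory cells of other kinds use these targets heavily. Of 10 plasma and B cell markers only *Pim2* had a line, with 11 and 17 adjusted footprints, and of 12 pancreatic acinar markers only *Cela1*, with 48 and 34. A missing line does not show that a marker is scarce. The hepatocyte marker *Cps1* and the macrophage marker *Cd68* had none either. Markers of Kupffer cells, the liver's macrophages, moved in the same direction as the targets. For 9 of 10 of them there was a line, all with ratios above 1, from 1.1 for *Vsig4* to 1.55 for *Marco*, with 0 called, 4 at an unadjusted p under 0.05 in the exact test, and a summed level of 4175 on 0 Se and 5307 on 0.1 Se, and their part in the ratios of the targets was not tested. Markers of stellate cells summed to 3679 and 2741, with 6 of 7 below 1 and *Reln* called lower.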

How the data were processed

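Liver ribosome footprints of 8 libraries from 4 mice were grouped by the sample titles into 0 Se and 0.1 Se. According to the study's methods, the authors trimmed adapters, removed ribosomal RNA reads and aligned the rest with Bowtie to RefSeq mRNAs of mm9, keeping the longest isoform per gene. Reads with a unique place and up to 2 mismatches were counted on coding sequence without the first 15 and last 3 codons, and the diets were compared in edgeR. The sources used here do not give versions or the way repeat libraries of a mouse were combined.

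The single deposited table holds, per gene, the coding length counted, the authors' log2 CPM (their average abundance over all libraries), their log2 fold change and linear fold of 0.1 Se over 0 Se, their p-value and their adjusted p-value. The deposited log2 fold change and p-values are the authors' own comparison and are not printed. They served only to recover the 2 diet sums behind each p-value and the number of tests, 10398. The sums are those whose 2-sided exact test under a negative binomial model returns the deposited p-value. The model had 1 dispersion of 0.0121 for all genes and 2 libraries per diet, the repeat libraries of a mouse being assumed joined. All 60 of the most repeated p-values were matched, and 14 genes took the nearest of several pairs. Genes with both sums above 900 were estimated from log2 CPM and p-value. So were genes for which no whole pair returned the p-value, some of them with small sums and some of them called. Totals from log2 CPM deviated from the whole sums by an SD of 0.216%. The depth of single libraries is unknown, and with 2 mice per diet the SE rests on the common dispersion.

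The exact test was run again on the sums, with Benjamini-Hochberg adjustment over 10398 tests, of which 7500 have a line. The quasi-likelihood test planned for counts per library could not be used on this table. The SE of a log2 ratio is the square root of the summed reciprocal diet sums plus the dispersion, on the log2 scale, and intervals are normal 95% intervals. The targets and the gene lists were chosen with earlier results of these data known. Genes named are the targets, every listed gene that was called and landmarks of each role, and a few others as stated. The counted length equalled a coding length less 60 bases in 97.9% of 7260 genes compared. Gene positions are from GENCODE M1 on mm9, where no target shared a 30-base coding window with another gene. The *Xbp1* stretch is the match, of 2 to CNGCAG at both cleavage sites 26 bases apart, whose removal leaves the longer frame. Promoters are from RefSeq. The recovery was tested on simulated data. Python 3.11.15, numpy 2.4.6, scipy 1.17.1, pandas 2.3.3 and matplotlib 3.10.9 were used.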

Additional observations from a re-analysis of the deposited data

How the results depend on the processing

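The exact test called 107 genes, 5 of the 10 targets and 4 of the other unfolded protein response genes, and these counts moved most with the common spread assumed. With a coefficient of variation of 0.2 in place of 0.11, 18 genes, 1 target (*Creld2*) and 1 other gene (*Syvn1*) were called, and with 0.3 the counts were 4, 0 and 0. With counting error alone they were 296, 8 and 5. A 2-fold threshold left 39, 1 (*Creld2*) and 1, and Bonferroni adjustment 34, 3 (*Creld2*, *Sdf2l1* and *Herpud1*) and 1. Centring on abundant genes (log2 CPM from 8 upward) gave 146, 8 and 4, the targets added being *Creb3l2*, *Uap1* and *Gfpt1*, and centring on 4 to 6 gave 105, 4 (without *Hyou1*) and 1. Of all called genes 74.8% were higher on 0.1 Se, 89.0% after the first centring and 51.4% after the second. The ratios of all 10 targets lay above 1 in each alternative, so a called target could only be higher. Without a fold threshold, or with only genes at a log2 CPM of 3 or more, the counts stayed within 1.5 times those given. The log2 ratio of every target kept its direction under both centrings. Adding 2 counts to each sum cannot reverse a ratio, so the direction there was fixed in advance. The cause was not tested beyond what each alternative changes by construction.

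Leaving out a mouse, and using the first or second library of each mouse alone, were not run, since the table holds no value per library. No paired analysis was possible because no mouse number occurs in both diets and the table holds no value per library. Sums under about 100 per diet, as for *Atf4*, *Trib3*, *Chac1* and *Derl3*, limit what those ratios can show. Tests without a line leave ratios near 1 out of every median.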
